A study of Homo sapiens with 2 samples.

Results

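The AP-1 and EGR immediate-early transcription factors are the genes FOS, FOSB, FOSL1, FOSL2, JUN, JUNB, JUND, EGR1, EGR2 and EGR3, taken by symbol, with earlier results of these data known. Of these 10 genes, 9 had a named probe set among the 17687 genes of the array. EGR2 is unnamed here and its level was not analysed. The cells were MKN1, a long-established line from a human gastric cancer, and total RNA was measured. A first derivative was selected with puromycin after transfection of a pBABE vector for wild-type RHOA, and a second derivative after transfection of the same vector for RHOA Y42C, in which a tyrosine of this small GTPase is replaced by cysteine. Each line gave 1 array, so no value below has a replicate error or a test, and the comparison is between these 2 lines. Both lines carry a RHOA vector on top of the cells' own RHOA, and parental or empty-vector cells were not analysed here, so it cannot be told in which line a level moved.

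FOS and JUN proteins pair through leucine zippers into the dimer AP-1, which binds a short palindromic DNA element. FOS proteins need a JUN partner, whereas JUN proteins can also pair among themselves. EGR proteins bind GC-rich elements through zinc fingers. Growth factors, stress and changes of the actin skeleton switch many, though not all, of these genes on within minutes, with no need for new protein synthesis. Such signals act through serum response factor (SRF), its ternary complex partners and CREB. In epithelial tumours AP-1, and FOSL1 in particular, is known for genes of invasion and squamous differentiation.

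The sequences just upstream of EGR1, FOSB and FOS are shown because EGR1 and FOSB stood apart between the arrays and FOS did not, and because each holds the CRE core, with the SRF element found in EGR1 alone. They are the 250 bases before the annotated transcription start, 5′ to 3′ on the gene's strand, from RefSeq (GRCh38.p14): EGR1 at chr5:138465229-138465478 (+ strand), FOSB at chr19:45467746-45467995 (+ strand) and FOS at chr14:75278578-75278827 (+ strand). Capitals mark every match, on either strand, to the 6 motifs searched, which were the CArG box bound by SRF, the AP-1 site TGANTCA, the CRE-type site TGACNTCA, the CRE core TGACG bound by CREB, the EGR site GCGNGGGCG and the ETS site CCGGAA. A CRE-type site with G at its open position holds the CRE core as well.
EGR1: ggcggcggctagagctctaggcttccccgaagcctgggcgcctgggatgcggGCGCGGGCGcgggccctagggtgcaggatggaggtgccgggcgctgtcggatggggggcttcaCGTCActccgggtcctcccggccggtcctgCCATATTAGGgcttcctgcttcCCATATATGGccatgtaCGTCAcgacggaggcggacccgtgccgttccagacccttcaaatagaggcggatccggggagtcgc
FOSB: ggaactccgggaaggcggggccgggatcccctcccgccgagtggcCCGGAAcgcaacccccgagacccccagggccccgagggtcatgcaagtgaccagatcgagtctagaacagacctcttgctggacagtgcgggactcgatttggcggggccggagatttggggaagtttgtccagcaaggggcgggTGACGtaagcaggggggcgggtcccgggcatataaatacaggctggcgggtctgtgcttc
FOS: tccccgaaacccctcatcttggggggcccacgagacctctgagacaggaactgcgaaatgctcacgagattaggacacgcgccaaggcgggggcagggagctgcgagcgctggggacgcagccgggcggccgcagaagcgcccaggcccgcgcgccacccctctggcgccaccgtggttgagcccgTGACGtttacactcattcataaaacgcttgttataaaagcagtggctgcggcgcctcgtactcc

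In EGR1 there were 2 CArG boxes, from -105 to -96 and from -83 to -74 counted from the start, and a CRE core on either side of them. FOSB had a CRE core from -60 to -56 and an ETS site from -205 to -200. FOS had a CRE core from -64 to -60. The SRF element for which FOS is best known lies further upstream than this window. Promoters of 7 measured members were read. FOSL1 was not matched. Promoters on the chromosome of EGR3 were left out of the search of the members, so EGR3 was not read. The shares over all promoters were taken without this exclusion. The CRE core was found in 7 of the 7, against 21.2% of all 35116 promoters of the same length, and the CArG box in 1 of the 7, against 1.16%. The AP-1 site was found in 0 of the 7, against 6.57%, the CRE-type site in 2 (JUN and JUND), against 6.87%, and the EGR and ETS sites in 1 each, against 8.41% and 14.5%. Between 62.0% and 74.8% of the bases of these 7 windows were G or C, against a median of 58.0% over all promoters. The shares of promoters with a motif were not adjusted for that. They also include promoters of genes below the expression minimum defined below. Among genes above it with a listed promoter, 3429 had the CRE core and 6274 did not. The other motifs are counted over such genes further below. A listed promoter of EGR2, whose level was not measured, held a CArG box from -71 to -62. A match is a description of the sequence and shows no binding.

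**Figure D1:**
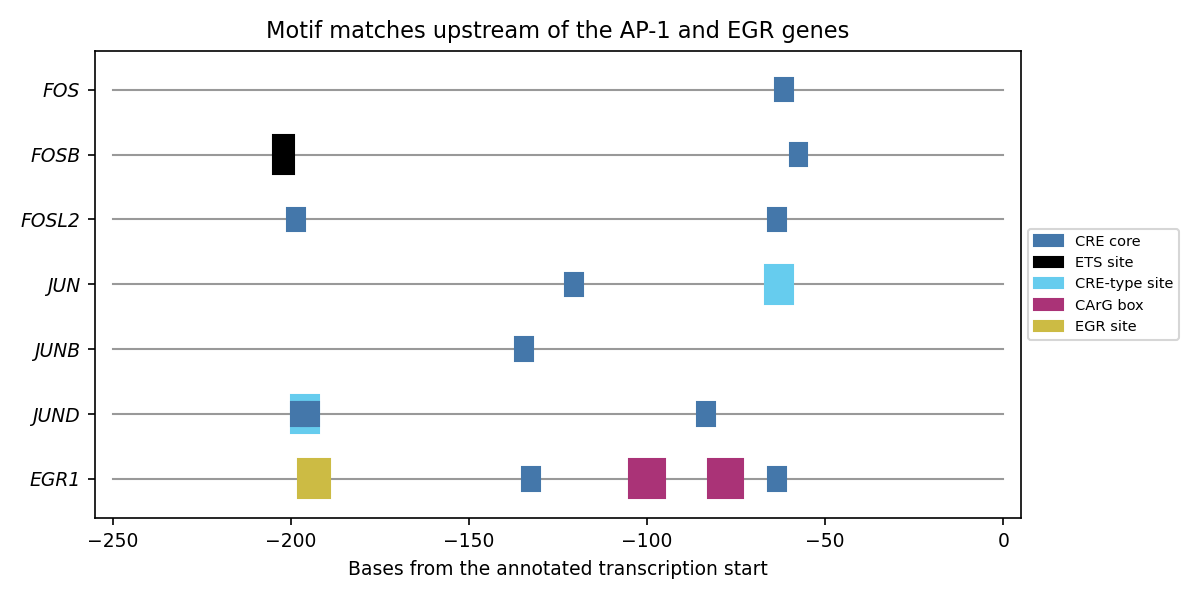
Matches to 5 of the motifs in the 250 bases upstream of the 7 measured members whose promoters were read. The x axis is the distance in bases from the annotated transcription start, and each box is 1 match on either strand. The CRE core is present in every row, while the CArG boxes are in EGR1 alone among these 7. EGR2 and EGR3 are not shown.

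Of the 9 measured members, 4 were higher in the Y42C array by 2-fold or more and 0 were lower by that much. These were EGR3, FOSL1, FOSB and EGR1. The same threshold was passed by 7.46% of the 11802 genes above the expression minimum in the higher direction and by 9.80% in the lower direction. The minimum is the 95th percentile of 349 olfactory receptor genes, whose RNA is not looked for in stomach-derived cells, and came to 5.17 for wild-type and 5.14 for Y42C. All 9 members reached it in at least 1 array, 8 of them in both. EGR3 reached it in the Y42C array alone and so had to differ. Of the other 8 members 3 were higher by 2-fold or more and 0 lower, against 755 and 1032 of the 10946 genes that reached the minimum in both arrays. By sign, 8 members were higher and 1, JUNB, was lower, while 45.2% of all genes above the minimum were higher. Among those that reached it in both arrays, 7 members were higher and 1 lower, and 44.5% of all genes were higher. The median difference of the members was 0.91 on the log2 scale, against -0.07 over all genes above the minimum. Over the 8 members that reached it in both arrays the median was 0.79, against -0.08 over all such genes. A bulk extract cannot tell more RNA per cell from more cells that express a gene.

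**Figure D2:**
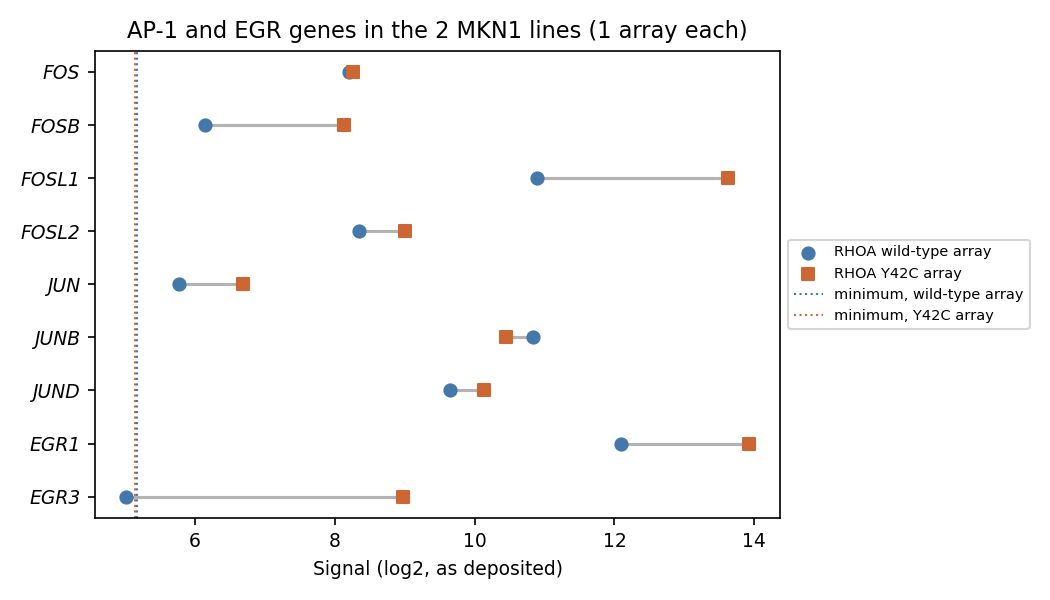
Log2 signal of the 9 measured members in the wild-type (circles) and Y42C (squares) arrays, 1 array each, with dotted lines at the expression minimum of each array. Signals of different genes come from different probes and are not compared with each other; the widest gaps are those of EGR3, FOSL1, FOSB and EGR1.

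The 4 FOS family genes did not share 1 difference. FOSL1, which encodes FRA1, the FOS protein most often tied to invasive growth, had a log2 signal of 10.89 with wild-type RHOA and 13.63 with Y42C. FOSL1 was thus 6.68-fold higher in the Y42C array, the 30th most positive of the 11802 differences. Its difference of 2.74 lay well outside the middle 90% of the 500 genes nearest to it in mean level, which ran from -1.14 to 1.11, and 1 of those 500 exceeded it. FOSB, a FOS protein with a strong activation domain that also has a shorter splice form, went from 6.14 to 8.13, which is 3.97-fold higher, and 7 of its 500 neighbours in level exceeded it. The array value does not separate the FOSB forms.

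FOSL2, which encodes FRA2, had a signal of 8.35 with wild-type RHOA and 9.01 with Y42C. That 1.58-fold difference lay inside the middle 90% of genes of like level, from -1.36 to 1.24 on the log2 scale. FOS, the founding and most transient member, read 8.20 and 8.26, a difference of 0.06. FOS was therefore at about the same signal in both lines while FOSB and FOSL1 stood apart by 1.99 and 2.74 on the log2 scale.

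None of the 3 JUN family genes passed 2-fold. JUN, the strongest transcriptional activator of the family, read 5.77 with wild-type RHOA and 6.68 with Y42C, 1.88-fold higher, and its wild-type value lay close to the minimum. Of the 500 genes nearest to it in level 37 exceeded that difference, and its value of 0.91 lay inside their middle 90% (-1.13 to 1.07). JUND, which is expressed steadily in most cells and restrains growth, read 9.65 and 10.13, 1.39-fold higher. JUNB, which often opposes JUN, read 10.84 and 10.45 and was 1.31-fold lower, the one member below its wild-type value. Both JUND and JUNB lay inside the middle 90% of genes of like level.

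Both measured EGR genes were higher in the Y42C array. EGR3, which calcium signalling can induce, read 5.01 in the wild-type array, below the minimum, and 8.98 in the Y42C array. EGR3 was thus at least 14.0-fold higher, with the minimum standing in for its wild-type value. EGR1, the widely expressed member that links mitogens to growth factor genes, read 12.10 and 13.93, which is 3.56-fold higher. Of the 500 genes nearest to EGR1 in level 5 exceeded its difference of 1.83, and their middle 90% ran from -1.0 to 1.19.

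**Figure D3:**
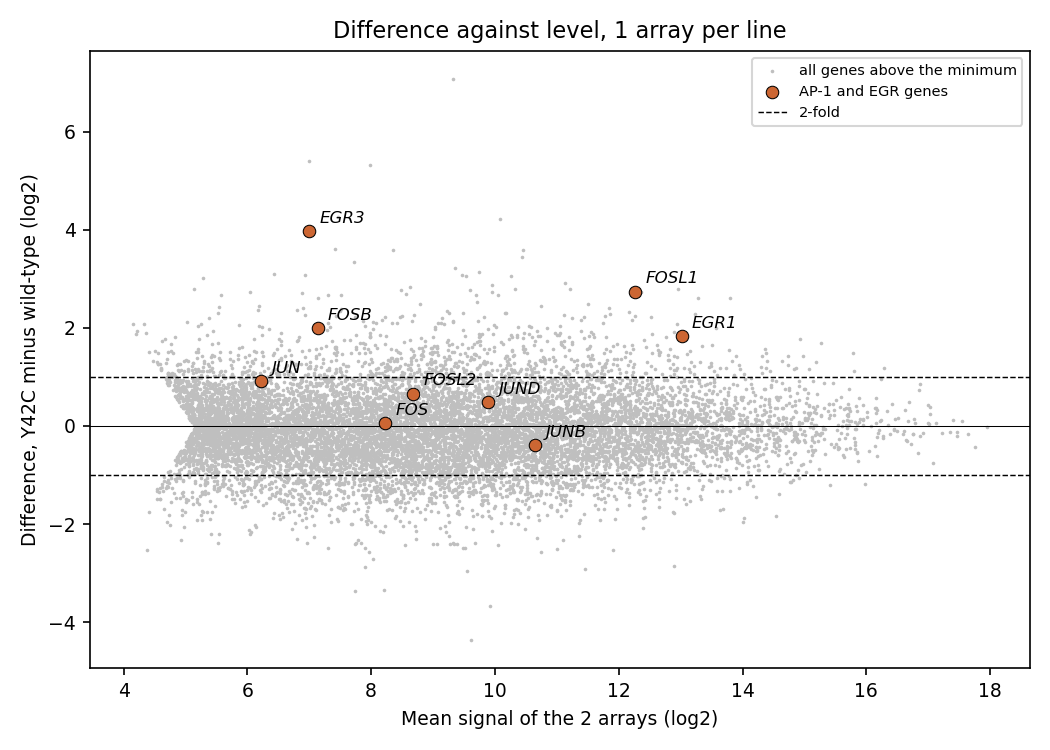
Difference between the arrays (Y42C minus wild-type, log2) against the mean log2 signal, for 11802 genes above the minimum (grey) and the 9 measured members (orange), with dashed lines at 2-fold. EGR3, FOSL1, FOSB and EGR1 lie above the upper line, and JUN, FOSL2, JUND, FOS and JUNB lie between the lines.

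Each member has a single probe set here, and the members of each family are paralogs; whether their probes bind each other's RNA was not tested. The nearest protein-coding gene above the minimum on each side was read for all 9 members, by the order of genes in the RefSeq table. Genes below the minimum were passed over, and the widest gap was 512 kb, between JUN and FGGY. Past 2-fold were 0 of these 18 neighbours on the higher side and 1 on the lower, and their median difference was 0.05. Next to FOSL1, CCDC85B read 5.76 and 6.02, and C11orf68 read 7.71 and 7.36. Beside EGR1, REEP2 read 7.10 and 6.21, and ETF1 read 13.56 and 13.15. None of the genes read beside FOSL1, FOSB, EGR1 and EGR3 was higher by 2-fold, and ERCC1, next to FOSB, came closest (9.96 and 10.73). HOOK2, whose annotated span overlaps JUNB, was the lower one, at 6.14 and 4.41 and at least 2.01-fold lower, and which strand the JUNB probes read is not given.

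The partners and relatives of the members differed less. Of 10 named bZIP proteins of the AP-1 class, 7 were above the minimum, and ATF2, which pairs with JUN, was the 1 gene past 2-fold (10.49 and 11.58, 2.13-fold higher). MAFF, a small MAF protein, lay just under the threshold at 0.98 and passed it once the arrays were centred on their medians. ATF3, a stress-induced repressor that is itself an immediate-early gene, read 7.49 and 6.56, a difference of -0.93. The median of the list was 0.20. Among 5 partners and zinc finger relatives of EGR proteins, 3 were above the minimum and 0 passed 2-fold. NAB2, a corepressor that EGR1 induces and that limits it, read 6.66 and 6.94, and SP1, which can share GC-rich sites, read 12.77 and 12.56. EGR4 was below the minimum in both arrays (log2 signal of 3.61 for wild-type).

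SRF, its partner factors, CREB and the kinase genes RPS6KA4 and RPS6KA5, whose products act on CREB, included 3 of 11 genes past 2-fold, each of them higher, around a median of 0.23. MRTFA, the actin-regulated coactivator of SRF, read 9.03 and 11.33 and was 4.92-fold higher. SRF itself read 7.07 and 8.89 and was 3.53-fold higher, and ETS1, a RAS-responsive factor, was 2.51-fold higher (10.61 and 11.94). The ternary complex genes ELK1 (0.23), ELK3 (0.35) and ELK4 (-0.07) lay within 2-fold, as did MRTFB (-0.54), CREB1 (-0.66) and both kinase genes (-0.09 and -0.42). The CREB and ternary complex genes therefore did not share the difference seen in SRF and MRTFA.

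Kinases upstream of these factors were close between the arrays. Of 15 RAS-ERK genes, 10 were named, 10 were above the minimum and 0 passed 2-fold, with a median of -0.01 that turned positive under some settings (up to 0.05). MAPK3, which encodes ERK1, read 12.90 in both arrays. MAP2K5, which activates ERK5, lay at the upper end (0.77), and RPS6KA1, an ERK-activated kinase, at the lower end (-0.96). Among 11 JNK and p38 kinase genes above the minimum 1 passed 2-fold, MAP2K6, which activates p38 (9.20 and 7.49, 3.27-fold lower). Their median was -0.14. Kinase RNA says nothing of kinase activity, which these arrays do not measure.

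Other immediate-early genes differed in both directions. Of the 23 that reached the minimum, 9 were higher by 2-fold or more and 2 lower, and the median was 0.71. RHOB, a small GTPase gene induced by growth factors, was 5.58-fold higher and MYC 4.20-fold. SRF, CCN2 (2.93-fold), PPP1R15A (2.69-fold), KLF10 (2.46-fold), KLF6 (2.39-fold), NR4A1 (2.20-fold) and TRIB1 (2.03-fold) made up the 9. IER5, an immediate-early gene linked to the heat shock response, was 3.05-fold lower, and ZFP36, whose protein destroys immediate-early RNAs, 2.62-fold lower. The other 12 lay within 2-fold, DUSP1 (-0.26) and IER2 (-0.84) among them. Of the members, FOS and JUNB did not pass 2-fold either, whereas FOSB and EGR1 did.

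Genes that limit MAP kinase signals differed in both directions too. Of 16 phosphatase and Sprouty family genes that reached the minimum, 8 were higher by 2-fold or more and 1 lower, and the median was 0.92. DUSP10, a phosphatase of JNK and p38, was 4.82-fold higher (9.98 and 12.25), SPRY2 4.41-fold, DUSP7 3.92-fold and SPRED2 3.63-fold. DUSP5 (2.50-fold), DUSP4 (2.25-fold), DUSP6 (2.19-fold) and DUSP9 (2.04-fold) followed. SPRY1 was 3.84-fold lower (8.44 and 6.50). SPRY4 was at least 1.62-fold lower, from 5.83 to a Y42C value of 4.85 that lay below the minimum.

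Control of the members' RNA and protein life was read from a pair of further lists. Of 7 genes that act on AU-rich elements, the decay signals of immediate-early RNAs, 1 passed 2-fold in each direction and the median was -0.13. ZFP36L1 was 2.77-fold higher (12.37 and 13.84), and its paralog ZFP36 was the lower one (9.66 and 8.27). Of 6 genes of JUN and FOS protein turnover 0 passed 2-fold. GSK3B, a kinase that marks JUN for destruction, lay at 0.62 and CSNK2A1, a casein kinase gene, at -0.57.

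**Figure D4:**
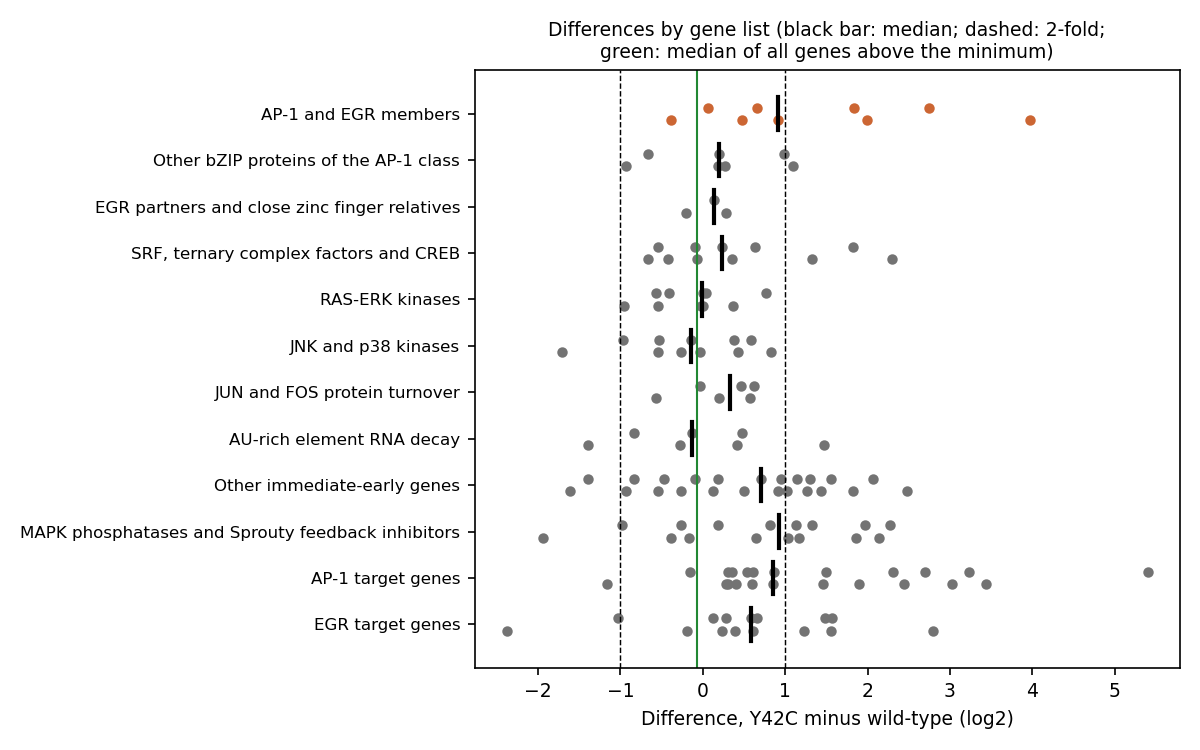
Differences (Y42C minus wild-type, log2) of genes above the minimum in the members and in 11 further gene lists; each point is 1 gene, the black bar is the list's median, dashed lines mark 2-fold and the green line the median of all genes above the minimum (-0.07). The medians of the members (0.91), of other immediate-early genes (0.71), of feedback inhibitors (0.92), of AP-1 targets (0.86) and of EGR targets (0.59) lie to the right, and those of the kinase lists near 0.

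Of 22 known AP-1 target genes that reached the minimum, 20 were higher in the Y42C array and 2 lower, 10 and 1 of them by 2-fold or more, and the median was 0.86. The direction was fixed for 8 of the higher genes and for 1 lower gene, which reached the minimum in 1 array alone. Of the 13 that reached it in both arrays, 12 were higher, 5 of them by 2-fold or more, and the median was 0.61. Over all 10946 genes that reached it in both arrays 44.5% were higher and the median was -0.08. The collagenase gene MMP1 read 8.72 and 12.16 and was 10.9-fold higher, and the gelatinase gene MMP9 read 7.74 and 10.97. The stromelysin genes MMP3 and MMP10 and the collagenase gene MMP13 were below the minimum in the wild-type array and at least 4.72-fold, 3.09-fold and 2.84-fold higher. PLAU, the urokinase gene, read 7.21 and 9.91, 6.50-fold higher, and its receptor gene PLAUR was 2.75-fold higher. HBEGF, an EGF receptor ligand, was 2.83-fold higher.

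SPRR1B, a cornified envelope gene with an AP-1 element, was at least 23.1-fold higher, from 4.30 to 9.70. SPRR3 was at least 1.10-fold higher, so its place among the 10 rests on a wild-type value below the minimum, and the count was 9 with such values set to the minimum. The other higher targets stayed under 2-fold. The metallothionein gene MT2A read 16.44 and 17.29 (1.80-fold), VEGFA 10.75 and 11.36, and the cytokine gene LIF was at least 1.75-fold higher. CCND1, the cyclin D1 gene, read 14.65 and 15.19, CXCL8 5.33 and 5.64, and TIMP1 15.87 and 16.15. IL6 was the lower one, at least 1.69-fold, and also passed 2-fold only with its Y42C value below the minimum (5.89 and 4.73). IVL, the involucrin gene, was below the minimum in both arrays. The 10 genes past 2-fold on the higher side were 6 protease genes, the urokinase receptor gene, 2 squamous envelope genes and HBEGF. Of these only MMP1, MMP9, PLAU, PLAUR and HBEGF reached the minimum in both arrays. The direction of the others, both squamous envelope genes among them, was fixed because they reached it in the Y42C array alone.

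**Figure D5:**
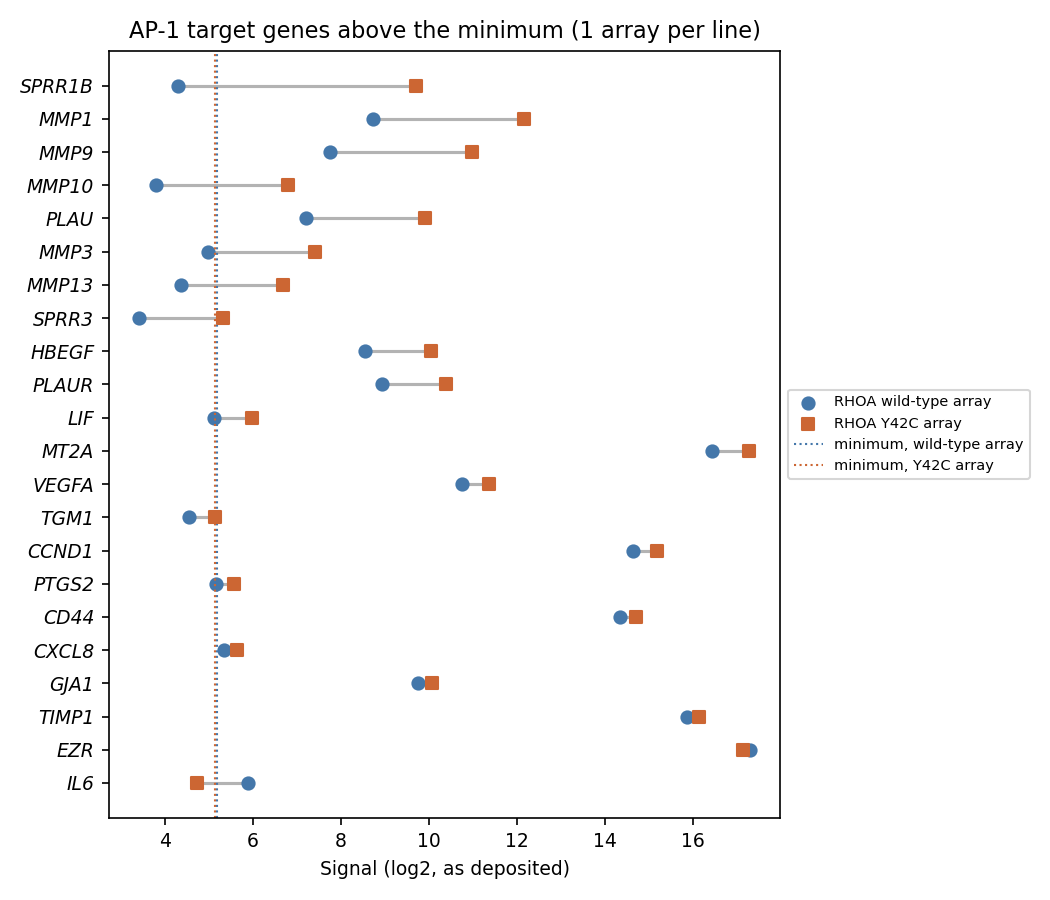
Log2 signal of the 22 AP-1 target genes above the minimum in the wild-type (circles) and Y42C (squares) arrays, 1 array each, ordered by their difference; dotted lines mark the minimum of each array. The squares lie to the right of the circles in 20 genes, with EZR and IL6 the exceptions.

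Among 15 EGR target genes that reached the minimum, 5 were higher by 2-fold or more and 2 lower, and the median was 0.59. FN1, the fibronectin gene, was 6.92-fold higher (9.81 and 12.60). The growth factor genes PDGFB and PDGFA were 2.97-fold and 2.93-fold higher, CDKN1A, a cell cycle inhibitor gene, 2.79-fold, and TGFB1 2.35-fold. TNFSF10, a death ligand gene, was 5.21-fold lower (10.86 and 8.48). ICAM1 was 2.04-fold lower and no longer passed 2-fold once the arrays were centred on their medians. ARC, a direct EGR target that also responds to SRF, lay at 0.66.

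The promoter table also allowed all genes to be sorted by motif. Of 144 genes above the minimum with a CArG box in a listed promoter, 13.2% were higher in the Y42C array by 2-fold or more and 6.25% lower, against 7.0% and 10.1% of the 9559 genes without one. For the AP-1 site the shares were 10.6% higher and 9.32% lower over 601 genes, against 6.86% and 10.1% over 9102. For the EGR site they were 9.54% and 9.18% over 1688 genes, against 6.58% and 10.3% over 8015. For the CRE-type site they were 8.89% and 10.4% over 742 genes, against 6.94% and 10.1% over 8961. The CRE core and the ETS site had fewer higher genes with the motif than without it. The CRE core gave 5.60% higher and 10.9% lower over 3429 genes, against 7.91% and 9.66% over 6274. The ETS site gave 4.81% and 12.4% over 2827 genes, against 8.03% and 9.15% over 6876. The shares are not adjusted for base composition or level and carry no test.

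The label of the line was checked against markers. The epithelial genes EPCAM, KRT8, KRT18 and KRT19 read between 13.30 and 17.96 in both arrays, and CDH1, the E-cadherin gene, was below the minimum in both (3.92 and 3.86). All 6 gastric differentiation markers were below the minimum in both arrays. Of the markers of other cell types named here, 1 of 4 leukocyte genes (CD14, 7.45 and 5.67) and 1 of 4 fibroblast genes (LUM, 12.09 and 14.37) differed by 2-fold or more, PTPRC and CD3E were above the minimum in the Y42C array alone (5.39 and 5.67), and 2 of 4 endothelial genes were above the minimum and within 2-fold. COL1A1, the other fibroblast gene above the minimum, read 6.05 and 5.84, and DCN and PDGFRB were below it in both. Summed over each list, where the brightest probe weighs most, the levels went from 7.89 to 7.30 for leukocyte, from 12.12 to 14.38 for fibroblast (almost wholly LUM) and from 7.29 to 7.70 for endothelial genes (log2 of the summed linear signal). Their part in the differences above was not tested.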

How the data were processed

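Gene expression was measured on 1 Affymetrix array for each of 2 MKN1 lines. The authors' tool was Affymetrix Expression Console, per the submitters' processing notes; background correction, summary method, normalization and software version are not given. The deposited table holds 1 value per probe set for 21448 probe sets, between 2.23 and 18.16, taken as log2 signal from this range, since the log base is not stated; every fold assumes it. The array medians were 6.42 (wild-type) and 6.36 (Y42C). The platform annotation gave 17709 probe sets 1 symbol, and 3739 are unnamed here. Probe sets of a gene were averaged. Genes were kept if either array had them at or over the 95th percentile of olfactory receptor genes there, and a fold against a value below the minimum uses the minimum. With 1 array per group no test was run, and precision is limited by the number of arrays.

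The members and lists were chosen with earlier results of these data known. All members were named, and of each further list every gene past 2-fold or, where there was none, both ends; other genes were named after their values were seen. The motif search, the neighbouring genes and the sorting of genes by motif were also added after the data were seen. Of 192 list entries 170 were named here. Files name no genome build, so promoter coordinates are those of the RefSeq table. The code was tested on simulated data. The alternatives are given with their effect in the closing section. Calculations used NumPy 2.4.6 and pandas 2.3.3 in Python 3.11.15, lowess of statsmodels 0.14.6 and plots of matplotlib 3.10.9.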

Additional observations from a re-analysis of the deposited data

How the results depend on the processing

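The count of members past 2-fold, 4 higher and 0 lower, was the same with arrays centred on their medians, quantile normalization, a lowess trend removed, a constant of 16 added, the brightest probe set, each other minimum (99th percentile, array median, none) and dim values raised to the minimum. At a threshold of 1.5-fold 6 were higher, and at 4-fold 2 (EGR3 and FOSL1). The members' median of 0.91 was 0.75 with the constant of 16 and 1.36 as a mean. It was 0.79 without FOSB, FOSL1, EGR1 or EGR3 (each left out in turn), 1.37 without FOS, FOSL2, JUNB or JUND, and 1.25 without JUN. Of 54 differences of single members under the alternatives 53 moved by less than the SD of the olfactory receptor genes (0.440) and stayed on their side of 2-fold, and the other was EGR3 with the constant of 16 (3.43). FOS lay between 0.06 and 0.19 and JUNB between -0.39 and -0.28. Of 297 values of the further lists 32 moved, by over 1.5 times for a count or over 0.1 for a median. The median of AP-1 targets ran from 0.62 with no minimum to 1.48 with the array median as minimum. The lists' medians kept their sign, except for the RAS-ERK kinases (-0.01 to 0.05). No paired analysis was possible because each group has 1 array. Without replicates the spread between cultures is unknown, and low signals such as those of EGR3, JUN and MMP10 are the least certain.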
